A study of Rattus norvegicus with 10 samples.

Results

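The GADD45 family of the rat comprises 3 small genes, Gadd45a, Gadd45b and Gadd45g, and all 3 were present among the 12555 genes of the deposited table when looked up by symbol. Their mRNA was measured by RNA sequencing of rat liver in 5 libraries labelled with a 30% calorie-restricted diet in gestation (restricted 1 to 5) and 5 labelled with a normal diet (normal 1 to 5), all of wild-type genotype. The library names are SGA for the restricted group, which the series title expands as small for gestational age, and AGA for the normal group, so the livers are taken here to be those of the offspring. The source label names a hepatocyte cell line, whereas the tissue label and the design text name liver. The sources used here state no sex, age, litter, feeding state or time of collection. Of the family, Gadd45b alone passed the test between the diets, being 5.97-fold higher in restricted liver, while Gadd45a and Gadd45g did not pass. The Gadd45b call was kept in 12 of 20 alternative fits. The Y-linked gene Kdm5d had 0 counts in restricted 1 to 4 and was counted in restricted 5 and every normal library. Diet therefore cannot be told apart from what goes with Kdm5d except through restricted 5.

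GADD45 proteins are small acidic proteins without enzymatic activity, named for their induction by growth arrest and DNA damage. They act by binding others: the cell cycle inhibitor p21 (Cdkn1a), the replication clamp PCNA, the mitotic kinase CDK1 with cyclin B1, and the kinase MEKK4 (Map3k4), which they activate toward p38 and JNK, while GADD45B also blocks the JNK kinase MKK7 (Map2k7). Gadd45a is induced by DNA damage, by FOXO factors and by stress that acts through ATF4. Gadd45b is induced by NF-kB, TGF-beta and, in mouse liver, by ligands of the nuclear receptor CAR and by fasting. Gadd45g was first described as a gene induced by cytokines.

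All 3 genes matched an entry in RefSeq's promoter table (build GRCr8), and the 250 bases before each transcription start are shown because the members differed in response and share part of their promoter letters. Capitals mark matches to any of 8 motifs searched on both strands: the E-box CACGTG, the CCAAT box CCAAT, the octamer ATTTGCAT, the TATA box TATAAA, the GC box GGGCGG, the AP-1 site TGANTCA, the cyclic AMP response element TGACGTCA and the FOXO site TGTTTAC. Each sequence runs 5′ to 3′ along the minus strand, on which all 3 genes lie.
Gadd45a, chr4:97486800-97487049: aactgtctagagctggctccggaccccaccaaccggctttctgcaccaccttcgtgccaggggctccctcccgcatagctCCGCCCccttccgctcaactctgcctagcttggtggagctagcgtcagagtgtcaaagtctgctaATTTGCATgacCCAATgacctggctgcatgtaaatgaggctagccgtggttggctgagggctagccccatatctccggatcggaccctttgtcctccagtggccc
Gadd45b, chr7:9430719-9430968: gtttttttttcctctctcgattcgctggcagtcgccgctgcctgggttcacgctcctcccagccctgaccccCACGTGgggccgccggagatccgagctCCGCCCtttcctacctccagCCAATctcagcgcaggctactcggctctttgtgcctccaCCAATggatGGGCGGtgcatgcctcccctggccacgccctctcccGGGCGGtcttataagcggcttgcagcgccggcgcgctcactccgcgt
Gadd45g, chr17:13530352-13530601: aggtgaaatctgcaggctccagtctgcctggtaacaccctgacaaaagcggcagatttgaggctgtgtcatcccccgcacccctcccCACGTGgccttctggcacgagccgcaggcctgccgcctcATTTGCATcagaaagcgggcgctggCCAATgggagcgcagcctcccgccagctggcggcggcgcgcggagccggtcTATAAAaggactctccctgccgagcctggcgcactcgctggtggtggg

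A CCAAT box stood in all 3 windows, beginning 94 bases before the start in Gadd45a, 131 and 92 bases before it in Gadd45b and 99 bases before it in Gadd45g, and 34.0% of 33469 rat promoter windows of the same length held one. Gadd45a and Gadd45g each had 1 octamer, at 105 and 124 bases, a motif in 1.56% of windows. Gadd45b had no octamer and instead shared the E-box with Gadd45g, at 178 and 163 bases (5.59% of windows). GC boxes numbered 3 in Gadd45b and 1 in Gadd45a (30.5% of windows held at least 1). The exact letters TATAAA were found in Gadd45g only (12.9%), and variants of the TATA box were not searched. No AP-1, cyclic AMP or FOXO letters were found in these windows. The GC content was 59.6% in the Gadd45a window and 66.0% in those of Gadd45b and Gadd45g, against a median of 51.2% over all windows.

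Total counts ran from 15052166 to 22104957 in restricted libraries and from 14936156 to 16105083 in normal libraries. The 8 hepatocyte markers summed to 149587 to 227314 CPM (counts scaled to a common library size) in restricted and 167201 to 199058 CPM in normal libraries, none was at 0 counts, and 1 of the 8, Ttr, was lower in restricted liver (log2 fold change −0.71, adjusted p 0.0497 in edgeR). Counts of the Y-linked gene Kdm5d were 0 in restricted 1 to 4 and 309 in restricted 5, against 280 to 392 in the normal libraries, so this gene divides the libraries almost as diet does. Cyp2c11, a cytochrome P450 of adult male rat liver, had 2.48 to 6.43 CPM in restricted 1 to 4 and 151 CPM in restricted 5, against 116 to 831 CPM in the normal libraries. Cyp2c12, its counterpart in adult female rat liver, had 2198 to 2714 CPM in restricted 1 to 4 and 298 CPM in restricted 5. The normal libraries had 497 to 3050 CPM, normal 1 being the highest of all, so Cyp2c12 did not split the libraries as Kdm5d did. Cyp2c13 and Cux2, also listed as sex-biased, did split them in that way. Cyp2c13 had 1.29 to 8.29 CPM in restricted 1 to 4, 1035 CPM in restricted 5 and 154 to 2203 CPM in normal libraries. Cux2 had 13.6 to 24.0 CPM in restricted 1 to 4, 1.74 CPM in restricted 5 and 1.07 to 5.48 CPM in normal libraries. Diet and what goes with Kdm5d cannot be told apart except through restricted 5. Its values are therefore given beside the results for the family and for some of the listed genes. In the edgeR test across 12367 genes, 506 genes (4.09%) passed a Benjamini-Hochberg adjusted p of 0.05, with 231 higher (1.87%) and 275 lower (2.22%) in restricted liver. Leaving out normal 3, normal 4 or normal 5 brought the 506 down to 265, 226 or 213, leaving out restricted 2 or restricted 4 to 231 or 301, and leaving out restricted 5 to 470.

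Gadd45b (ENSRNOG00000019822) had 11.5, 9.49, 5.11, 27.8 and 38.6 CPM in restricted 1 to 5, against 2.49, 3.88, 2.68, 3.90 and 2.49 CPM in normal 1 to 5. The groups did not overlap: the lowest restricted library, restricted 3, lay above the highest normal library. Over all genes tested, 2.91% had every restricted library above every normal one. The counts behind these values were 257, 176, 74, 424 and 620 in restricted and 38, 61, 40, 59 and 37 in normal libraries. Gadd45b rose by 2.58 ± 0.54 on the log2 scale (SE), or 5.97-fold with a 95% interval of 2.57 to 13.8 (edgeR, p 0.000866, adjusted p 0.0329), and ranked 325 of 12367 genes by p. Only 16 genes (0.129%), itself included, had a log2 fold change at least as large. A two-sided exact permutation test of its log2 CPM gave 0.00794, the smallest p that 5 against 5 libraries allow.

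The size of the rise in Gadd45b differed widely between the restricted libraries. Their levels spanned 7.55-fold, with a coefficient of variation of 76.5%, against 1.57-fold and 23.9% in the normal libraries. Restricted 5, the library with Kdm5d counts, stood at 12.5 times the normal mean, and restricted 1 to 4 averaged 4.36 times it. Without restricted 5 the log2 fold change was 2.12 (adjusted p 0.0322). With log2 CPM of Kdm5d as a covariate it was 3.70 (adjusted p 0.0370), a value that rests mainly on restricted 5. The edgeR adjusted p was above the threshold when any normal library was left out (0.0711, 0.0640, 0.0859, 0.0739 and 0.0918 for normal 1 to 5) and when restricted 4 was left out (0.0631), with log2 fold changes of 2.40 to 2.69 in these fits. Limma-voom gave an adjusted p of 0.0904 at a log2 fold change of 2.22, and DESeq2, which called 8.48% of all genes, one of 7.37e-07 at 2.58. In the authors' deposited table Gadd45b had a fold change of 5.99 with an adjusted p of 8.21e-07, where 4.16% of 12555 genes were higher at an adjusted p below 0.05.

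**Figure D1:**
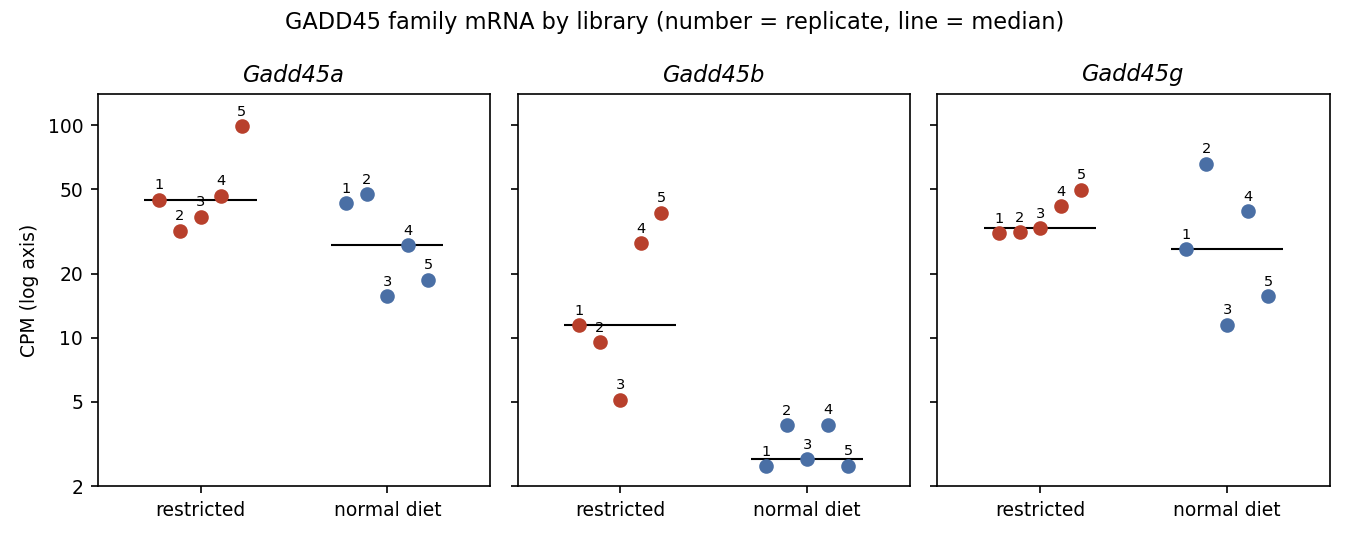
CPM of each family member (log axis) in the 5 restricted and the 5 normal diet libraries. Numbers are replicates and lines are medians. Gadd45b is between 5.11 and 38.6 CPM in restricted and between 2.49 and 3.90 CPM in normal libraries, and the groups overlap for Gadd45a and Gadd45g.

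Gadd45a (ENSRNOG00000005615) had 44.6, 31.8, 37.1, 46.6 and 98.6 CPM in restricted 1 to 5, against 42.8, 47.3, 15.7, 27.3 and 18.7 CPM in normal 1 to 5. Restricted 5 alone lay above every normal library, and the other 4 restricted libraries fell within the normal range. In edgeR the difference on the log2 scale was 0.77 ± 0.40 (SE), with a 95% interval of −0.14 to 1.67 and a p of 0.0880 (0.321 after adjustment), and an exact permutation test of log2 CPM gave a two-sided p of 0.119. Without restricted 5 the log2 fold change was 0.40 (adjusted p 0.570), and with Kdm5d as a covariate it was 1.75 (adjusted p 0.117). The interval of the difference reaches from 0.908-fold to 3.19-fold, so a change of the size of 2.57-fold, the lower bound for Gadd45b, lies inside it. The authors' deposited table lists Gadd45a with a p of 0.0250, an adjusted p of 0.156 and a log2 fold change of 0.77, under the absolute value of 1 that their rule asks for.

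Gadd45g (ENSRNOG00000013090) had 31.1, 31.3, 32.8, 41.5 and 49.7 CPM in restricted 1 to 5, against 26.1, 65.9, 11.5, 39.4 and 15.6 CPM in normal 1 to 5. Here the restricted libraries were the less spread, over 1.60-fold (coefficient of variation 21.9%) against 5.73-fold (69.2%) in normal libraries, and the restricted values all lay inside the normal range. The edgeR log2 fold change of 0.23 ± 0.43 (SE) had a 95% interval of −0.75 to 1.21 and an adjusted p of 0.809, with an exact permutation p of 0.365 (two-sided). Normal 2, the highest of all libraries, weighed on this value: leaving it out gave 0.68 on the log2 scale (adjusted p 0.319), and without normal 3 it was 0.02 (adjusted p 0.988). Without restricted 5 it was 0.11 (adjusted p 0.935). The authors' deposited table lists Gadd45g with an adjusted p of 0.824.

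**Figure D2:**
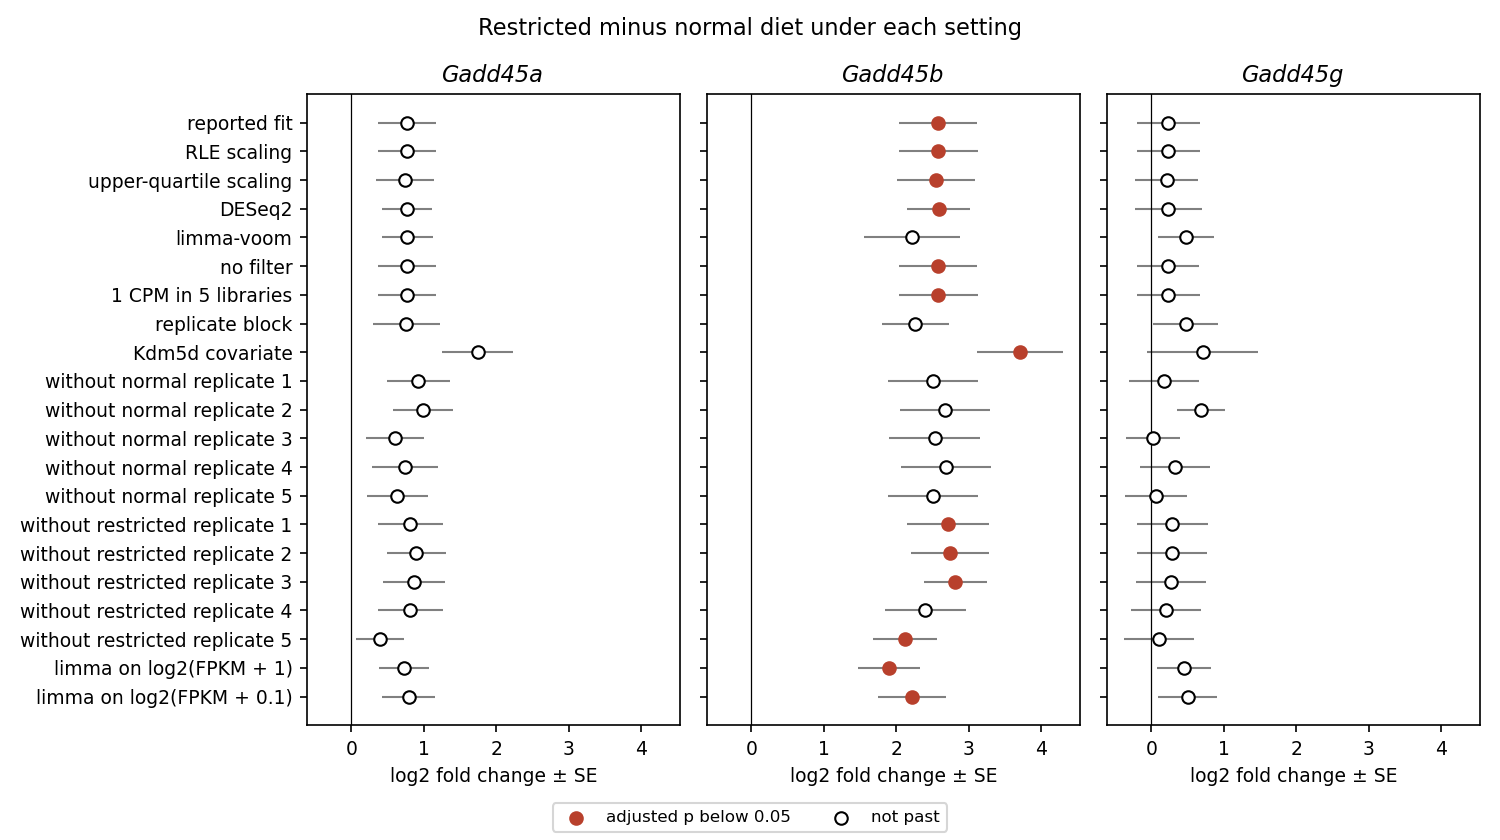
Log2 fold change (restricted minus normal diet, with SE) of the 3 members in the reported fit and under each of 20 alternatives. Filled points passed an adjusted p of 0.05. Gadd45b stays between 1.90 and 3.70 and is filled in 12 alternatives, Gadd45a between 0.40 and 1.75 and Gadd45g between 0.02 and 0.71, neither filled in any.

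All 3 genes passed the filter on low counts, and all 3 varied more between libraries of a group than most genes. The biological coefficient of variation in the edgeR fit was 0.433 for Gadd45a, 0.535 for Gadd45b and 0.470 for Gadd45g, against a median of 0.183 over all genes tested, which put them above 93.5%, 96.7% and 95.1% of genes.

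To ask whether one member moved by another amount than the next, the log2 ratio of 2 members was taken inside each library, which removes the scaling of that library. The ratio of Gadd45b to Gadd45a was −1.95, −1.73, −2.83, −0.74 and −1.35 in restricted 1 to 5, against −4.04, −3.57, −2.49, −2.77 and −2.85 in normal 1 to 5. All restricted libraries but restricted 3 lay above every normal library. Gadd45b rose against Gadd45a by 1.42 on the log2 scale, with means of −1.72 ± 0.77 in restricted and −3.14 ± 0.64 in normal libraries (SD, n = 5 each; two-sided exact permutation p 0.0238, 0.0357 adjusted over the 3 ratios). Against Gadd45g, Gadd45b rose by 1.72, with −1.35 ± 0.92 in restricted and −3.06 ± 0.76 in normal libraries (same test, p 0.0238, adjusted 0.0357), and 4 of the 5 restricted libraries again lay above all normal ones. The ratio of Gadd45a to Gadd45g differed by 0.29, with 0.37 ± 0.39 in restricted and 0.08 ± 0.56 in normal libraries, and did not pass (p 0.349). Leaving out any single library kept both Gadd45b ratios past an unadjusted 0.05, with differences of 1.18 to 1.70 against Gadd45a and 1.47 to 2.04 against Gadd45g.

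**Figure D3:**
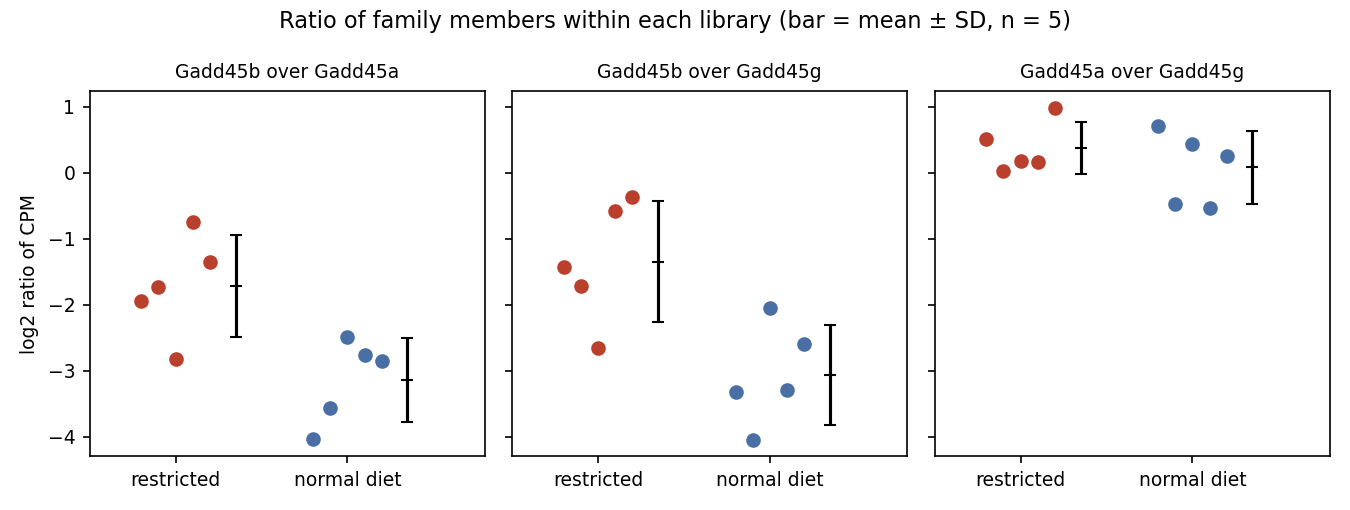
Log2 ratio of CPM between 2 family members within each library, for the 5 restricted and 5 normal diet libraries, with mean ± SD. The ratios with Gadd45b sit higher in restricted libraries (means −1.72 and −1.35) than in normal ones (−3.14 and −3.06), and the ratio of Gadd45a to Gadd45g overlaps between the groups.

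Levels of different genes are compared per length, on the scale of FPKM, the authors' fragment counts scaled by gene length and library size. In restricted liver Gadd45g averaged 16.5 ± 3.88, Gadd45a 16.3 ± 9.13 and Gadd45b 14.5 ± 11.3 FPKM, and these levels did not differ beyond their spread. In normal liver Gadd45g averaged 13.8 ± 9.43, Gadd45a 9.38 ± 4.42 and Gadd45b 2.38 ± 0.575 FPKM (SD, n = 5 per group). Gadd45b was the lowest member in every normal library, while Gadd45a and Gadd45g overlapped. In restricted liver Gadd45b was the lowest member in restricted 1, 2 and 3, the highest in restricted 4 at 19.8 FPKM, and second in restricted 5 at 31.8 FPKM. It made up 13.3% to 39.8% of the family's summed FPKM in restricted libraries, against 6.46% to 17.3% in normal libraries. The sum itself was 36.9, 33.9, 28.7, 49.7 and 87.4 FPKM in restricted 1 to 5, against 27.3, 45.5, 11.8, 29.2 and 14.1 FPKM in normal 1 to 5, and the groups overlapped.

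**Figure D4:**
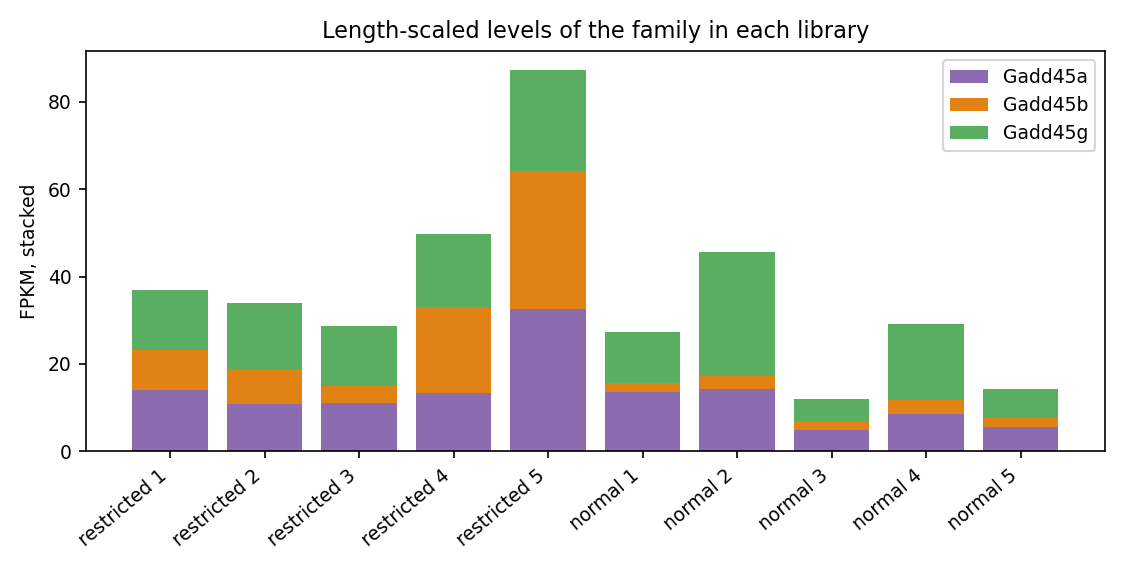
FPKM of the 3 members stacked for each library, restricted libraries on the left and normal diet libraries on the right. The Gadd45b segment is the smallest in every normal library and reaches 19.8 and 31.8 FPKM in restricted 4 and restricted 5.

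The members also varied together from library to library, which is given here as a description over 10 libraries that share diet groups and scaling. Gadd45a and Gadd45g had a Pearson r of 0.79 (Spearman 0.77), and 0.77 once each library was set against its own group mean. Gadd45a and Gadd45b had an r of 0.73 (Spearman 0.58), 0.60 against group means and 0.54 without restricted 5. For Gadd45b and Gadd45g r was 0.52 (Spearman 0.58), and 0.45 against group means. These values join groups of unlike spread, and within each diet taken alone (5 libraries, too few to report an r) this pair ran closer than the joint value. Normal 3 and normal 5 were the lowest libraries for both Gadd45a and Gadd45g, and restricted 5 and restricted 4 were the highest restricted libraries for all 3 genes.

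Across the 10 libraries the genes whose log2 CPM followed Gadd45b most closely were Pex11a, of peroxisome division (r 0.96), the adenylate cyclase Adcy9 (0.96), the fatty acid omega-hydroxylase Cyp4a1 (0.95), Trappc2b (0.94) and the lipid droplet coat gene Plin2 (0.93). After the group means were subtracted the closest were the calpain inhibitor Cast (0.96), Cisd3 (0.94), the ribosomal protein gene Rpl39 (0.93), Ssbp1, which binds single-stranded mitochondrial DNA (0.93), and Idh3a of the citric acid cycle (0.92). The 2 lists share no gene, but the first 5 genes still had values of 0.79 to 0.91 against group means. Across the 10 libraries Cast had 0.86, Cisd3 0.46, Rpl39 0.11, Ssbp1 −0.09 and Idh3a 0.20. Gadd45a was followed most closely by Il1rn, which encodes the interleukin-1 receptor antagonist (r 0.95), the DNA end-joining gene Nhej1 (0.94), Arl5b (0.93), Sh3bp4 (0.93) and the nuclear IkB gene Nfkbiz (0.92). Il1rn, Nhej1, Arl5b and Nfkbiz were again among its closest 5 after the group means were subtracted (0.91 to 0.93), joined by Rsbn1l. For Gadd45g the values were lower, with the glucuronosyltransferase Ugt2b (0.89), Nhej1 (0.87), Clec1a (0.86), Rsbn1l (0.85) and Morc3 (0.85), and Ugt2b belongs to a family of near-identical genes whose reads may be shared. Against group means its closest genes were Ankrd33b (0.92), RGD1563601 (0.91), the D-amino acid oxidase Dao (0.91), Trmt44 (0.90) and Ugt2b (0.89).

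Genes of proteins that bind GADD45 were read from a list of 13 partners. In edgeR 1 was higher and 0 were lower (7.69%, against 4.09% of all genes tested). The counts were 0 and 0 in limma-voom, 1 and 1 in DESeq2, and 0 and 0 with Kdm5d as a covariate. An unadjusted p under 0.05 in edgeR was found for 5 of the 13, against 20.1% of all genes. The median log2 fold change of the 13 was −0.09, against 0.01 over all genes tested. Npm1, a nucleolar chaperone, had 114, 99.0, 117, 129 and 99.99 CPM in restricted 1 to 5, against 88.2, 95.1, 77.3, 83.5 and 88.0 CPM in normal 1 to 5. Every restricted library lay above every normal one, and Npm1 rose by 0.37 ± 0.10 on the log2 scale (SE; adjusted p 0.0494 in edgeR), a call that was kept without restricted 5 (0.0405) and lost without any other library, with an adjusted p of up to 0.117 without normal 3. Gadd45gip1, whose product binds GADD45 proteins and serves the mitochondrial ribosome, had 19.3, 20.6, 21.2, 20.5 and 20.1 CPM in restricted 1 to 5, against 24.7, 22.6, 24.8, 26.5 and 27.2 CPM in normal 1 to 5. The groups did not overlap here either, as for 3.44% of genes in that direction, but at a log2 fold change of −0.31 ± 0.08 (SE) it did not pass (adjusted p 0.0545 in edgeR, 0.0435 with upper-quartile scaling and 0.0213 in DESeq2).

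Cdkn1a, the p21 gene, had 63.6, 27.0, 23.0, 33.3 and 25.2 CPM in restricted 1 to 5, against 19.6, 32.4, 13.7, 13.9 and 20.5 CPM in normal 1 to 5. The groups overlapped, and its log2 fold change of 0.78 ± 0.33 (SE) did not pass (adjusted p 0.225 in edgeR). For Pcna the log2 fold change was −0.24, for Cdk1 −0.65 and for Ccnb1, which encodes cyclin B1, −0.69 (adjusted p 0.293, 0.280 and 0.383). Map3k4, the kinase that GADD45 proteins activate, had 22.8 ± 1.76 CPM in restricted and 22.7 ± 1.28 CPM in normal liver (SD, n = 5 each), and its 95% interval excludes a log2 fold change above 0.19. Map2k7, the kinase GADD45B blocks, had 23.3 ± 1.67 and 24.7 ± 2.15 CPM in restricted and normal liver (adjusted p 0.637).

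Of the 17 tested genes of the p38 and JNK modules, 0 passed in edgeR and 2 had an unadjusted p under 0.05 (background 20.1% of genes). Limma-voom called 0, and DESeq2 called both of these, 1 higher and 1 lower. They were Map3k5, the kinase ASK1, with a log2 fold change of 0.69 ± 0.20, and Map2k3, a p38 kinase, with −0.32 ± 0.10 (SE; adjusted p 0.0820 and 0.0809). For both genes the diets did not overlap. Every restricted library lay above the normal ones for Map3k5, as for 2.91% of all genes tested, and below them for Map2k3, as for 3.44%. Of 20 genes of G2 and mitosis, 0 passed in edgeR and 5 had an unadjusted p under 0.05. Their median log2 fold change was −0.56, and 18 were negative, where 52.3% of all genes were positive. Limma-voom called 0 of the 20, DESeq2 called Nusap1 lower (−0.81 in edgeR, adjusted p 0.0428 in DESeq2), and edgeR without restricted 1 called Aurkb lower (adjusted p 0.0463). Of 12 DNA methylation and demethylation enzymes, to which Gadd45a has been linked, 0 passed in edgeR or limma-voom, 5 had an unadjusted p under 0.05, and their median was −0.08. DESeq2 called 1 of them higher, the DNA methyltransferase Dnmt3a (0.39 ± 0.11 and adjusted p 0.0670 in edgeR, 0.0274 in DESeq2).

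Genes upstream of the family were read from lists of its known inducers. All 13 lists together, partners included, held 171 tested genes, of which 18 were higher and 3 lower (12.3%, against 4.09% of all genes). The lists were chosen with earlier results of these data known, so this share describes them and is no test of enrichment. Leaving out normal 3, normal 4 or normal 5 brought the 21 down to 10, 9 or 11, leaving out restricted 2, restricted 4 or restricted 5 to 10, 12 or 17, and Kdm5d as a covariate to 6.

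The 14 tested genes of PPARalpha and fasting included 7 that were higher and 0 that were lower (50%, against 4.09% of all genes). Their median log2 fold change was 0.89. The 4 with the smallest p were Fgf21, a hormone the liver releases in fasting (2.85 ± 0.31, adjusted p 0.00266), the transcription factor Creb3l3 (0.82 ± 0.12, 0.00557), Plin2 (1.26 ± 0.22, 0.0117) and the lipase inhibitor Angptl4 (0.58 ± 0.11, 0.0120; log2 with SE, edgeR), and each of these calls held in all 10 fits that left out a library. The count of 7 was 4 without normal 3, normal 4 or normal 5, 6 without restricted 5, and 1 with Kdm5d as a covariate. Ppara itself had 63.8, 69.3, 63.6, 69.8 and 63.3 CPM in restricted 1 to 5, against 27.3, 70.4, 39.4, 28.3 and 28.6 CPM in normal 1 to 5. Normal 2, the highest normal library, exceeded all restricted libraries, and Ppara did not pass (log2 fold change 0.76, adjusted p 0.114; without normal 2, 1.09 and 0.00249). The same normal 2 was the highest library for Gadd45g and the highest normal library for Gadd45a.

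Of 14 tested genes of the integrated stress response, which runs through ATF4, 4 were higher and 0 lower (28.6%, against 4.09% of all genes). All 14 were positive, against 52.3% of all genes, and the median was 0.63. Herpud1, of protein quality control in the endoplasmic reticulum, rose to 256 ± 35.7 CPM in restricted liver, against 142 ± 30.2 CPM in normal liver (SD, n = 5 each; adjusted p 0.00888 in edgeR), and passed whichever library was left out. Trib3, Ddit4 and Cebpb had log2 fold changes of 1.54, 0.98 and 0.62 (adjusted p 0.0274, 0.0274 and 0.0403), which reached 0.0730, 0.0703 and 0.0843 with 1 library left out. The count of 4 was 1 without normal 2, normal 4, normal 5 or restricted 2, 2 without normal 3 or restricted 4, 3 without restricted 5, and 0 with Kdm5d as a covariate. For Atf4 itself the value was 0.30, with an adjusted p of 0.309. Ddit3, or GADD153, found in the same screen for genes induced by growth arrest, had 6.86, 10.5, 6.91, 5.25 and 10.8 CPM in restricted 1 to 5, against 4.06, 5.73, 5.62, 5.48 and 4.04 CPM in normal 1 to 5. Restricted 4 was the one restricted library inside the normal range of Ddit3, which did not pass (log2 fold change 0.69 ± 0.21, adjusted p 0.0937).

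Of 14 FOXO factors and targets 2 were higher (14.3%, against 4.09% of all genes). They were Bnip3 of mitophagy (0.93 ± 0.10, adjusted p 0.00170) and the thioredoxin inhibitor Txnip (0.93 ± 0.19, adjusted p 0.0194). Without restricted 5 both passed (adjusted p 0.00120 and 0.00898), and the Txnip call was lost without normal 4 or normal 5 (up to 0.0579). Neither passed with Kdm5d as a covariate, Bnip3 having 0.70 (adjusted p 0.0636) and Txnip 0.44 (adjusted p 0.456). Foxo1 and Foxo3 had log2 fold changes of 0.39 and 0.18 (adjusted p 0.164 and 0.560).

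In the list of CAR and its targets 1 of 9 tested genes was higher (11.1%, against 4.09% of all genes). It was Por, the reductase that serves cytochrome P450s (0.66 ± 0.17, adjusted p 0.0484). Among fits that left out a library, this call was kept only without normal 4 or restricted 5 and was at most 0.126 otherwise. Por had 0.31 (adjusted p 0.607) with Kdm5d as a covariate. Nr1i3, which encodes CAR, had 66.2, 53.8, 48.9, 62.9 and 53.8 CPM in restricted 1 to 5, against 30.9, 55.8, 27.8, 26.4 and 22.9 CPM in normal 1 to 5. As for Ppara, normal 2 stood with the restricted libraries, and Nr1i3 did not pass (log2 fold change 0.80 ± 0.22, adjusted p 0.0694; without normal 2, 1.08 and 0.00249). In the list of NF-kB and its targets all 13 tested genes were positive, against 52.3% of all genes, with a median of 0.35. Of these 1 was higher (7.69%, against 4.09% of all genes), Nfkbib (0.55 ± 0.14, adjusted p 0.0413). When a library was left out, that call was kept only without restricted 1 or restricted 3 and was at most 0.112 otherwise. Limma-voom called 0 and DESeq2 2. In edgeR without a covariate, values that did not pass ran up to 1.09 for the inhibitor gene Nfkbia (adjusted p 0.174, and 0.0229 in DESeq2). Rel had 0.72, Birc3 0.57, Nfkb1 0.18 and Rela 0.07 (adjusted p 0.300, 0.373, 0.425 and 0.708). The edgeR fit with Kdm5d as a covariate called 2 higher, Nfkbia (2.33, adjusted p 0.00379) and Rel (1.84, adjusted p 0.0441). Nfkbib did not pass there (0.67, adjusted p 0.163). Without restricted 5, Nfkbia had 0.52 and Rel 0.24 (edgeR, adjusted p 0.0924 and 0.676). Of 15 genes of TGF-beta signalling 0 passed in edgeR or limma-voom and 2 had an unadjusted p under 0.05 (background 20.1% of genes). Their median was 0.08, Smad3 having 0.12 (adjusted p 0.733). DESeq2 called 1 of them higher, the receptor gene Tgfbr2 (0.29 ± 0.10 and adjusted p 0.131 in edgeR, 0.0474 in DESeq2), and the fit with Kdm5d as a covariate also called 1 higher.

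Of 14 immediate early genes, the first transcripts to answer a stimulus, 0 passed in edgeR, limma-voom or DESeq2 (with Kdm5d as a covariate 1 was called higher). In edgeR 0 had an unadjusted p under 0.05, against 20.1% of all genes. All 14 were positive, against 52.3% of all genes, with a median of 0.42. Their summed level was 1231, 590, 1600, 977 and 3086 CPM in restricted 1 to 5, against 745 to 1473 CPM in the normal libraries, so restricted 5 was the highest library for these genes as for Gadd45a and Gadd45b. Restricted 3 also lay above the normal range, restricted 2 lay below it, and restricted 1 and restricted 4 lay inside it. The tie of these genes to Gadd45b was not tested. Clock genes went both ways, with 2 of 15 higher and 2 lower (26.7% together, against 4.09% of all genes). Cry1 changed by −1.53 ± 0.18 and Nr1d2 by 1.06 ± 0.18 (log2, SE; adjusted p 0.00251 and 0.00888), and both calls held whichever library was left out, whereas Nr1d1 (2.13 ± 0.43, adjusted p 0.0277) and Per2 (−1.51 ± 0.37, 0.0403) reached up to 0.0703 without normal 3 and 0.114 without normal 5. The list's count of 4 was 2 without normal 3, normal 4, restricted 2, restricted 4 or restricted 5, and 1 with Kdm5d as a covariate. In that covariate fit Cry1 passed (adjusted p 0.0284), and Nr1d2, Nr1d1 and Per2 did not (adjusted p 0.144, 0.103 and 0.308). Of 10 glucocorticoid receptor and target genes 7 were positive, the median was 0.57 and 6 had an unadjusted p under 0.05 (background 20.1% of genes). By the adjusted p 0 were higher and 1 was lower (10%, against 4.09% of all genes). That gene was the kinase gene Sgk1 (−1.08 ± 0.26, adjusted p 0.0454). Among fits that left out a library, this call was kept only without normal 2 or restricted 5 and was at most 0.114 otherwise. Sgk1 had −0.41 (adjusted p 0.610) with Kdm5d as a covariate. The positive values that did not pass in edgeR included the metallothionein genes Mt2A and Mt1 (2.08 ± 0.50 and 1.23 ± 0.32, adjusted p 0.0549 and 0.0670) and Fkbp5 (0.59 ± 0.19, adjusted p 0.107). Limma-voom called 2 genes of this list higher and 1 lower, and DESeq2 4 higher and 1 lower.

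**Figure D5:**
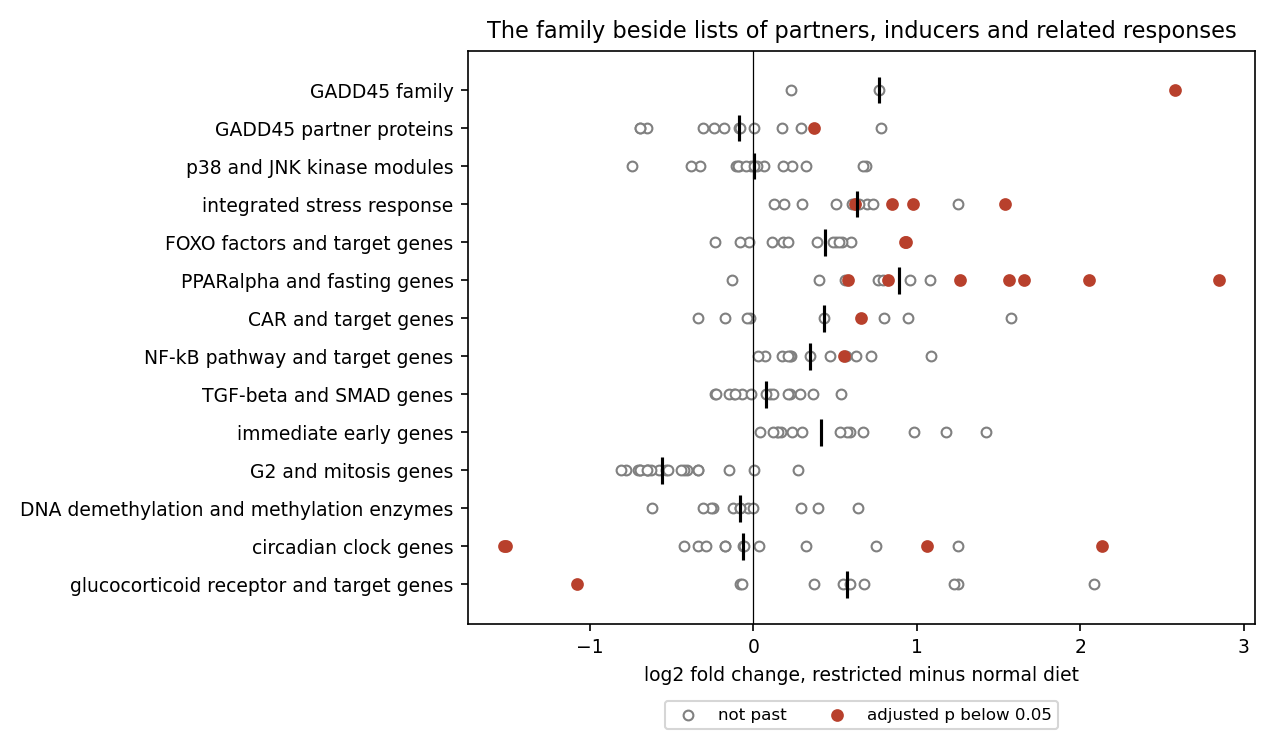
Log2 fold change (restricted minus normal diet) of each tested gene, by list, with the family in the top row. Filled points passed an adjusted p of 0.05 and bars are medians. The family's median is 0.77, with Gadd45b at 2.58, and the highest median among the 13 pathway lists is that of PPARalpha and fasting genes at 0.89.

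Bulk libraries mix cell types, and fewer cells of a type cannot be told apart from less RNA per cell. Of 12 Kupffer cell markers 11 were measured. All 11 had positive values, against 52.3% of all genes (median 0.67 on the log2 scale). In edgeR and limma-voom 0 passed, and 3 were higher in DESeq2, which called 8.48% of all genes. An unadjusted p under 0.05 in edgeR was found for 7 (background 20.1% of genes). None of these markers was at 0 counts in any library. They summed to 1030, 1974, 1082, 1340 and 2559 CPM in restricted 1 to 5, against 929 to 1205 CPM in the normal libraries. Restricted 2, restricted 4 and restricted 5 lay above the normal range of these markers, and restricted 1 and restricted 3 lay within it. The T and NK cell markers (5 of 11 tested, median 1.26) summed to 5.52 to 40.3 CPM in restricted and 3.10 to 9.64 CPM in normal libraries, and the B cell markers (3 of 5, median 0.89) to 5.80 to 80.9 and 7.26 to 13.9 CPM in restricted and normal libraries, each highest in restricted 5. Neutrophil markers (5 of 5, median 0.64) summed to 16.9 to 59.1 CPM in restricted and 11.4 to 32.2 CPM in normal libraries, highest in restricted 4. Endothelial markers (6 of 7) summed to 360.5 to 416.5 CPM in restricted and 360.4 to 412 CPM in normal libraries, and their median was 0.03. Stellate cell (8 of 8), cholangiocyte (5 of 6) and erythroid markers (3 of 6) had medians of −0.05, 0.54 and 0.64. In edgeR without a covariate and in limma-voom 0 markers of these other cell types passed. DESeq2 called 2 T and NK cell markers and 1 cholangiocyte marker higher. The edgeR fit with Kdm5d as a covariate called 3 Kupffer cell, 2 T and NK cell and 1 neutrophil marker higher. It called 0 B cell, endothelial, stellate cell, cholangiocyte or erythroid markers. The part of these markers in the levels of Gadd45a, Gadd45b and Gadd45g was not tested.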

How the data were processed

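RNA from 10 rat liver libraries was made into NEBNext Ultra libraries and sequenced on an Illumina NovaSeq instrument, per the labels' protocols and the series' design text. The submitters' processing notes name bcl2fastq, fastp, HTSeq and build rn7, and the design text a Q30 filter and HISAT2. For versions, gene annotation and strand setting, the sources used here state nothing. Per the file headers, the table holds the authors' raw counts, FPKM, fold change (a ratio of restricted over normal diet), its log2 and p-values, 1 column per library and no pooling. No source used here names the tool behind the deposited p-values.

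Counts were fitted with edgeR 4.0.16 (R 4.3.3): filterByExpr with a minimum count of 10 kept 12367 of 12555 genes, TMM scaling, robust dispersions, a two-sided quasi-likelihood test and Benjamini-Hochberg adjustment over all genes tested. CPM use TMM-scaled library sizes. Log2 CPM has a prior count of 2. The fit was tested on simulated data. Ratios and single genes were compared by exact permutation in SciPy 1.17.1. No 2 libraries of a group agreed within counting noise (chi-square per degree of freedom at least 21.6). The labels do not say that each library is a separate animal or litter, so p-values cover only the spread among the libraries, which may be technical. Same-numbered libraries were not treated as pairs.

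Members, the 13 pathway lists, marker lists and tests were chosen with earlier results of these data known. Named are the members, up to 4 genes per list with the smallest p, genes with a stated tie to the family, and the 5 genes most like each member. Listed genes without a value are not analysed here, and 1 further list and 1 gene of another are not reported here. As alternatives, DESeq2 1.42.0, limma-voom (limma 3.58.1), scaling by RLE or the upper quartile, no filter, a minimum of 1 CPM in 5 libraries, a replicate block, Kdm5d as a covariate, limma on log2(FPKM + 1) and log2(FPKM + 0.1), and leaving out each library were run. Promoter sequences are RefSeq's for GRCr8, another build than that of the counts.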

Additional observations from a re-analysis of the deposited data

Results flagged for a closer look

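Libraries that stood apart from the other 4 of their group (a gap of more than 0.71 of the group's range) were found in 12 of 140 groups of values, where chance flags about 1 in 20. Among the family this was Gadd45a in restricted 5, at 98.6 CPM. Restricted 5 also stood apart for Klf6 (96.6 CPM), Nfkbia (133 CPM) and Rel (8.60 CPM), and it is the restricted library with Kdm5d counts and the highest summed Kupffer cell, T and NK cell and B cell markers.

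Other restricted libraries that stood apart were restricted 1 for Cdkn1a (63.6 CPM), restricted 4 for Creb3l3 (864 CPM) and restricted 3 for Nr1d2 (63.9 CPM), each the highest of its group. Among normal libraries, normal 2 stood apart for Nr1i3 (55.8 CPM) and Ppara (70.4 CPM), and normal 1 for Trib3 (14.0 CPM), as the highest, and normal 3 for Cebpb (109 CPM) and normal 5 for Mt1 (8.02 CPM), as the lowest.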

How the results depend on the processing

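Gadd45b kept its direction in all 20 alternatives (log2 fold change 1.90 to 3.70) and passed in 12. It did not pass with limma-voom (2.22), with the replicate block (2.26, adjusted p 0.0710) or when any of 6 libraries was left out singly. Leaving out 1 library gave 2.12 to 2.81 for Gadd45b, 0.40 to 0.98 for Gadd45a and 0.02 to 0.68 for Gadd45g. Gadd45a and Gadd45g stayed positive and did not pass in any alternative. Same-numbered libraries deviated together (correlation over 0.1) in 1 of 5 pairs, and 2 of 5 restricted libraries were most like their own number, so the numbers are not taken as pairs. Sign permutation within these pairs gave p 0.125 for both Gadd45b ratios (differences 1.42 and 1.72), where the design allows no p under 0.0625. Genes called higher and lower were 514 and 535 with DESeq2, 127 and 138 with the replicate block, 102 and 19 with the Kdm5d covariate, and 103 to 225 and 110 to 253 with 1 library left out. List genes called higher and lower were 35 and 6 with DESeq2, 11 higher with the block, 5 and 1 with Kdm5d, 1 lower with limma on either FPKM scale, and 8 to 18 and 1 to 3 with 1 library left out. Of values for the 64 named list genes, 9 of 1280 reversed, none of a called gene: with Kdm5d Foxo1 (−0.078), Foxo4 (−0.068), Mapkapk3 (−0.24), Smad2 (0.016) and Map3k4 (−0.18), and Map3k4 also with upper-quartile scaling (−0.0187) and without normal 2, restricted 1 or restricted 3 (−0.029 to 0.043 over single libraries left out). The cause was not tested. At 37 to 61 counts in normal libraries, Gadd45b has the least depth of the family.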
